A study of Mus musculus with 8 samples.

Results

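The 4 libraries described here hold RNA of lung epithelial cells from wild-type mice, 2 after house dust mite (HDM) and 2 after phosphate-buffered saline (PBS), out of 8 libraries in the series. They were chosen by their labels alone, and all 25124 genes of the table were considered. Of these, 7512 reached an average of 10 normalized counts across the series and were tested. The groups are STAT3-WT after HDM (WT HDM, 2 libraries), STAT3-WT after PBS (WT PBS, 2 libraries), STAT3-cKO after HDM (cKO HDM, 2 libraries) and STAT3-cKO after PBS (cKO PBS, 2 libraries), all on strain C57BL/6. cKO stands for a conditional knockout of STAT3, and these 4 libraries entered only the estimate of the spread and the comparison of genotypes. HDM is a source of inhaled allergens, PBS is the buffer given to control mice, and the series describes the treatment as sensitization. The cells were sorted by flow cytometry from lung, and nanogram amounts of total RNA went into strand-specific libraries. The sorting markers, the HDM schedule, the Cre driver, the alleles carried by the WT mice, the age and sex of the mice and the number of animals behind a library were not stated in the labels. Whether both libraries of a group stem from different animals was not stated either, so every p-value reflects library-to-library spread that could be purely technical.

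In mice, inhaled house dust mite triggers a type 2 immune response. Epithelial alarmins such as IL-33 activate innate and adaptive lymphocytes, which release IL-4, IL-5 and IL-13. IL-13 acts on airway epithelium through the IL-4 receptor alpha and IL-13 receptor alpha 1 chains and the transcription factor STAT6, and drives mucous cells that secrete mucins, CLCA1 and chitinase-like proteins. Alveolar type 2 cells, which make surfactant, and macrophages express chitinase-like and resistin-like proteins in the same setting.

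Stat3, the gene targeted in cKO, had 76.9 and 92.2 normalized counts in cKO HDM and 56.9 and 96.5 in cKO PBS, and 134 and 157 in WT HDM and 75.8 and 40.9 in WT PBS. The cKO HDM libraries lay below WT HDM, and the cKO PBS libraries overlapped WT PBS. The deleted exons were not stated in the labels, and counts over the whole gene do not show a loss of part of it, so these levels do not check the labels. They are called the libraries labelled cKO where a direction is drawn from them.

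Depth and cell content came first. The recovered reads numbered 593200 and 317735 in WT HDM and 480163 and 411098 in WT PBS, which is shallow for RNA-seq. A gene with 0 reads in a library could still have stood at up to 1.96 and 3.87 normalized counts in the WT HDM libraries and 2.30 and 2.73 in the WT PBS libraries, the values of 3 reads. These floors and all intervals on read shares cover counting error only. Across genes the WT HDM libraries correlated with each other at r = 0.679 and the WT PBS libraries at 0.771. The first WT HDM library correlated with the WT PBS libraries at 0.710 and 0.690, above its correlation with the second WT HDM library, which stood at 0.569 and 0.559 with WT PBS. The label of airway epithelial cells held for general epithelial and airway transcripts. The epithelial adhesion gene Epcam had 114 and 153 normalized counts in WT HDM and 123 and 179 in WT PBS. The club cell secretoglobin Scgb1a1 had 1545 and 2440.5 in WT HDM and 2161 and 2026 in WT PBS, and the ciliated cell regulator Foxj1 had 379.5 and 395 in WT HDM and 550.4 and 534 in WT PBS. The basal cell genes Krt5 and Trp63 were nearly absent, at no more than 5.16 normalized counts in any WT library. Alveolar transcripts were as plain as airway ones. The surfactant gene Sftpc had 1519 and 2878 normalized counts in WT HDM and 765 and 1289 in WT PBS. The transcripts were therefore not those of conducting airways alone. In such bulk libraries, fewer cells of a type and less RNA per cell cannot be told apart.

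At the threshold used, more genes were higher after HDM than lower. Of 7512 genes, 38 rose and 1 fell in WT HDM against WT PBS (limma on log2 of the normalized count + 1, Benjamini-Hochberg adjusted p under 0.05), which is 0.506% and 0.0133% of the genes tested, or 0.519% in all. The rises ran from 1.20 to 6.11 on the log2 scale with a median of 2.41, against a median of -0.03 over all genes tested. The excess of rises lay in the strongest differences. At an unadjusted p under 0.05 the numbers were 338 higher and 333 lower, or 4.50% and 4.43%. Both WT HDM libraries lay above both WT PBS libraries for 1596 genes (21.2%) and below them for 1560 (20.8%). Positive differences made up 48.5% of all genes and negative ones 51.5%. Without the first WT HDM library the balance turned, with 18 genes higher and 45 lower. The plot of difference against mean level shows the called genes spread over a wide range of levels on the upper side.

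**Figure D1:**
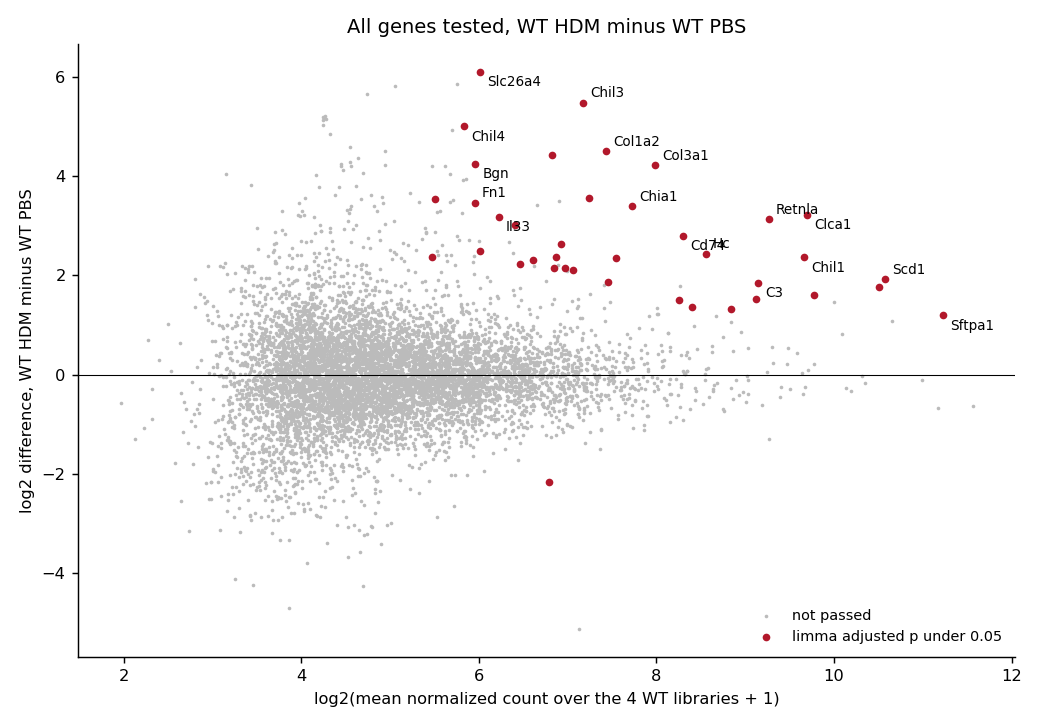
Difference of WT HDM minus WT PBS on the log2(normalized count + 1) scale (vertical axis) against the mean level over the 4 WT libraries (horizontal axis, log2), 1 point per gene tested. Red points are the 39 genes with a limma adjusted p under 0.05, 38 of them above 0 and 1 below it.

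The number of calls leaned on single libraries and on the variance model. Without the second WT HDM library 3 rose and 0 fell. Without the first WT PBS library 3 rose and 0 fell, and without the second 14 rose and 0 fell. Leaving out a cKO library, which touches the spread alone, gave 17 and 16 rises with 1 fall each for cKO HDM, and 90 and 93 rises with 18 and 17 falls for cKO PBS. All 39 genes kept their sign in all 8 of these fits. That outcome was fixed in advance, as cKO libraries do not enter the WT difference and the WT groups of these genes did not overlap. Few of the 39 passed in every fit. When each of the 4 WT libraries was left out in turn, 2 genes, Chil1 and Col3a1, passed in all 4 fits, Hc in 3, and Scd1, Chia1, Retnla, Cxcl15 and Slc34a2 in 2. Another 13 passed in 1 of the 4 fits and 18 in 0. Without a trend of the spread on the mean level, 1 gene passed, Serping1, and 0 of the 39 did. Quantile normalization gave 73 rises and 28 falls. On the whole reads, edgeR's quasi-likelihood test called 56 rises and 3 falls and DESeq2 called 114 and 20, and both called all 39. For every one of the 39 genes the libraries of WT HDM and WT PBS did not overlap. These genes were chosen by a test on the same values, so this adds no support. Over all genes tested, 21.2% were non-overlapping higher and 20.8% non-overlapping lower.

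Secretory products of the type 2 response were among the largest rises. Chia1, acidic mammalian chitinase, had 305 and 464 normalized counts in WT HDM and 26.8 and 45.5 in WT PBS. Retnla, the resistin-like secreted protein also called FIZZ1, had 899 and 1309.8 in WT HDM and 113 and 134 in WT PBS. Clca1, a secreted protein of mucous cells that processes mucus, had 1884 and 1104 in WT HDM and 230.4 and 102 in WT PBS. In each of the 3 genes both WT HDM libraries stood several-fold above both WT PBS libraries. The differences were 3.39 ± 0.44 for Chia1, 3.13 ± 0.41 for Retnla and 3.23 ± 0.46 for Clca1 (log2 ± SE, limma adjusted p = 0.00163, 0.002 and 0.00337). Clca1 and Chil4 were higher in the first WT HDM library, while Chia1, Retnla and Chil3 were higher in the second. Chil3, known as Ym1, a chitinase-like lectin of macrophages and lung epithelium, had 193 and 370.0 normalized counts in WT HDM and 4.59 and 5.46 in WT PBS. Chil4, its close relative Ym2, had 154 and 64.5 in WT HDM and 0.765 and 4.55 in WT PBS. WT PBS thus held next to no transcript of either, and Chil4 rested on 6 reads there, which gives a ratio of 49.7 with a counting interval of 22.5 to 136. Their transcripts share 18.5% of their 50-base stretches, so reads between them may be split with error.

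Chia1, Chil3 and Chil4 lie in 1 cluster on chromosome 3, with gene bodies from 106113382 to 106132118, 106147554 to 106167564 and 106201491 to 106219479 (GRCm38.p6, the mm10 assembly). Upstream windows are shown for 4 of these genes, with matches to a STAT-type palindrome marked. The 4 were not picked blind to the matches, so no share is drawn from them. Each is the 250 bases before the RefSeq gene start on GRCm38.p6, read 5′ to 3′ on the gene's strand, with a match to TTCNNNGAA or TTCNNNNGAA in capitals. The Chia1 window lies on chromosome 3 from 106113132 to 106113381 (plus strand) and holds neither motif. The Retnla window lies on chromosome 16 from 48842359 to 48842608 (plus strand) and holds TTCNNNNGAA from base -145 to -136. The Chil3 window (chromosome 3, 106167565 to 106167814, minus strand) and the Chil4 window (chromosome 3, 106219480 to 106219729, minus strand) were added after their values had been seen. They hold TTCNNNGAA from -172 to -164 and from -200 to -192, counted back from the gene start. The window of Slc26a4, the listed gene with the largest rise, holds neither motif and is not printed, and Clca1 is named only.
Chia1: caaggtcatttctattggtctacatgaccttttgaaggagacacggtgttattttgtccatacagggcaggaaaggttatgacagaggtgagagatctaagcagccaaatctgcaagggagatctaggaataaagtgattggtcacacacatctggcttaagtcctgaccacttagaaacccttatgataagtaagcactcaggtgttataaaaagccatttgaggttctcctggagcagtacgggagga
Retnla: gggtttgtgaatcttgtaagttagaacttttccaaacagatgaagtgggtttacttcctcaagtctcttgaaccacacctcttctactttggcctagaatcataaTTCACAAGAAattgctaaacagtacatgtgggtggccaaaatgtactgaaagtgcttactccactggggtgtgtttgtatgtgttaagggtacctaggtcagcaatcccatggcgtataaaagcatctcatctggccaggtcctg
Chil3: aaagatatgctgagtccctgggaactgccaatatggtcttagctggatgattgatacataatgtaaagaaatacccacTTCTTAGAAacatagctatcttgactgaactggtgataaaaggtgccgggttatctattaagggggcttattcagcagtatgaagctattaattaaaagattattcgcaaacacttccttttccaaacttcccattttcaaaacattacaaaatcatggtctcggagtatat
Chil4: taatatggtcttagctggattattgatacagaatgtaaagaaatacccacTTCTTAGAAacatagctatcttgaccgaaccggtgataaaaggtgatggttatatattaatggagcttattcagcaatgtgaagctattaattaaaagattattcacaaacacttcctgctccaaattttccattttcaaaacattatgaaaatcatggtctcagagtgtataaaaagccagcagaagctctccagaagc

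The Chil3 and Chil4 windows matched at 201 of 221 aligned bases, 90.95%. Both motifs read the same on either strand, and they do not overlap each other in these windows. Of 32851 RefSeq windows of that length, 7.02% held TTCNNNGAA and 5.85% held TTCNNNNGAA. Of the 38 rising genes, 30 had a window in the RefSeq table. The shorter motif was present for 2 of the 30, Chil3 and Chil4, and the longer for 3, Bgn, Il33 and Retnla. A rising gene counted if any of its windows held the motif, whereas the percentages count single windows. These matches are a description of the letters in these windows.

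**Figure D2:**
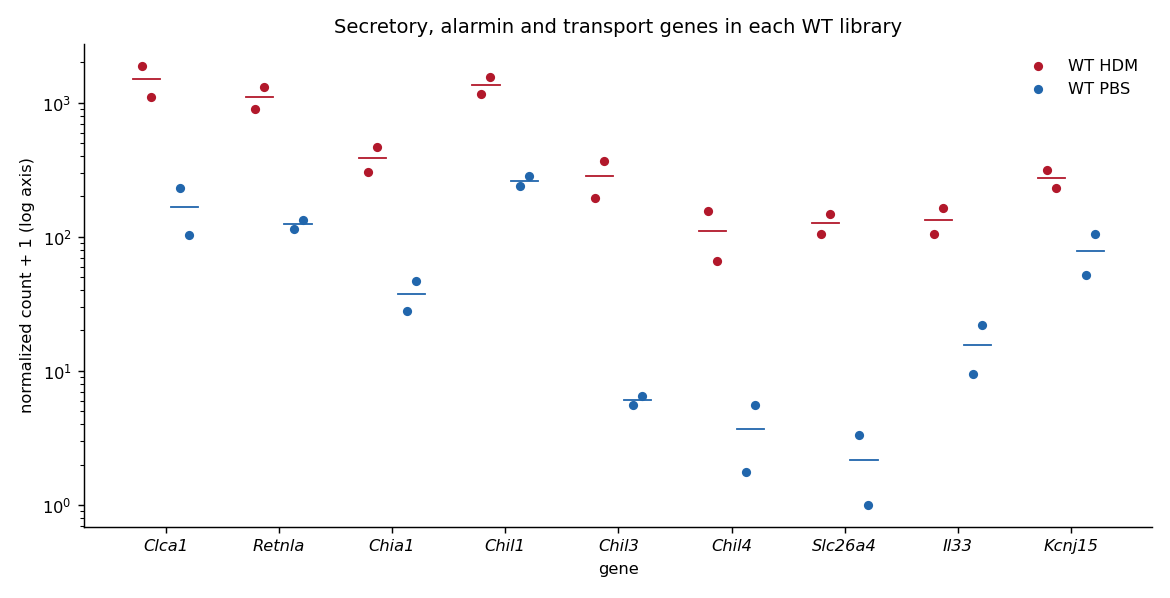
Normalized count + 1 in each of the 4 WT libraries (log axis) for secretory, alarmin and transport genes, WT HDM left of WT PBS. Both WT HDM points lie above both WT PBS points of each gene.

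Over all genes tested 0.506% rose and 0.0133% fell, with a median difference of -0.03. Of 40 genes in the IL-13 and mucous cell list, 17 were tested, and 6 rose and 0 fell, with a median difference of 2.23. The 6 are Chia1, Retnla, Clca1, Chil3, Chil4 and Slc26a4. Of the 5 tested members of the chitinase family 4 rose, the fourth being Chil1, and Chid1 did not pass (0.09 ± 0.76). Chil1, the secreted lectin YKL-40 (chromosome 1, 134182156 to 134190031), had 1171 and 1544 normalized counts in WT HDM and 237 and 284 in WT PBS. Its difference of 2.37 ± 0.23 had the smallest p of all genes (limma adjusted p = 0.00023), and it ran from 2.17 to 2.57 when each WT library was left out. The other tested genes of the list did not pass. Fcgbp, a mucus-associated protein, had 371 and 162 in WT HDM and 55.1 and 88.2 in WT PBS (1.80 ± 0.46, limma adjusted p = 0.128), without overlap but also without passing. Creb3l1, a transcription factor of secretory cells, stood at 2.19 ± 0.60 (limma adjusted p = 0.159). In this list 11 genes had 0 reads in all 4 WT libraries, among them Retnlb, Il13ra2 and Itln1. Spdef, the transcription factor of mucous cells, was under the filter at 9.78 and 21.9 in WT HDM and 3.83 and 2.73 in WT PBS.

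The gel-forming mucins did not pass. Muc5ac, the mucin that HDM is known for raising in mouse airways, had 62.0 and 37.4 normalized counts in WT HDM and 26.8 and 1.82 in WT PBS (2.47 ± 0.96, limma adjusted p = 0.436). Muc5b, the resting airway mucin, had 331 and 236 in WT HDM and 452 and 221 in WT PBS, and its groups overlapped (-0.18 ± 0.52, limma adjusted p = 0.966). Muc5ac was low in every library and ranged widely within WT PBS, so a difference of this size did not clear the spread. Of 17 tested genes of mucins and mucin assembly 0 rose and 0 fell, 4 had an unadjusted p under 0.05 on the higher side, and the median was 0.64. The smallest p belonged to Muc1, a membrane mucin also listed as an alveolar type 2 marker, at 1.22 ± 0.29 (limma adjusted p = 0.0934). On the whole reads DESeq2 called 1 of the 17, Muc1, and edgeR called 0.

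Of the alarmins, Il33 rose (chromosome 19, 29925113 to 29960718). It had 104 and 162 normalized counts in WT HDM and 8.42 and 20.9 in WT PBS, a difference of 3.19 ± 0.66 (limma adjusted p = 0.042). The call was lost without any 1 of the 4 WT libraries, where the difference ran from 2.58 to 3.80. Il33 is made by alveolar type 2 cells in mouse lung and is a member of that list too. Tslp and Il25, the other epithelial alarmins of type 2 immunity, had 0 reads in all 4 WT libraries, as did Il1a, Csf3, Il6 and Il17c. Of 21 listed cytokines 3 could be tested. The growth factor Areg, at 1.30 ± 0.84, missed the threshold (limma adjusted p = 0.74).

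The receptors and signalling genes of IL-13 and of the IL-6 family gave 0 calls among 19 tested, with 3 higher and 2 lower at an unadjusted p under 0.05 and a median of 0.60. Il4ra, the shared receptor chain of IL-4 and IL-13, had 52.2 and 46.4 normalized counts in WT HDM and 2.30 and 12.7 in WT PBS (2.90 ± 0.88, limma adjusted p = 0.244). Il13ra1, its partner chain, had 64.6 and 43.8 in WT HDM and 130.1 and 120.0 in WT PBS, the opposite direction (-1.22 ± 0.34, limma adjusted p = 0.169). Neither passed, and neither pair of groups overlapped. Stat3 itself had non-overlapping higher values in WT HDM and did not pass (1.36 ± 0.39, limma adjusted p = 0.189). Il6st, the signal chain shared by the IL-6 family, was the listed gene with the highest mean and stood at 0.46 ± 0.28 (limma adjusted p = 0.71). By edgeR and DESeq2 0 of the 19 passed, and in the limma fit of the 4 WT libraries alone Il4ra and Stat3 passed as higher. At a minimum mean of 50, Stat3 passed as higher and Il13ra1 as lower.

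Ion transport split by gene. Slc26a4, the anion exchanger pendrin of airway epithelium, had 104 and 148 normalized counts in WT HDM and 2.30 and 0 in WT PBS, where it rested on 3 reads in all. The ratio of pooled reads was 95.2, with a counting interval of 32.2 to 464, and the fitted difference of 6.11 ± 1.28 was the largest rise of the 38 (limma adjusted p = 0.0475). Kcnj15, an inward-rectifier potassium channel, had 313 and 232 in WT HDM and 51.3 and 104 in WT PBS (1.87 ± 0.34, limma adjusted p = 0.022). Slc34a2, the phosphate transporter of alveolar type 2 cells, and Aqp1, a water channel of vascular endothelium, were the other 2 of the 4 rises among 18 tested genes. Over all genes tested 0.506% rose. The epithelial sodium channel subunit Scnn1a lay on the lower side, with 211 and 174 in WT HDM and 359 and 387 in WT PBS (-0.96 ± 0.26, limma adjusted p = 0.147), and did not pass, although DESeq2 called it lower. The median of the list was -0.02, next to that of all genes.

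Alveolar type 2 markers lay higher as a body. Over all genes tested, 48.5% had a positive difference, 21.2% had non-overlapping higher values and 0.506% rose. Of 29 tested markers 29 had a positive difference, 27 had both WT HDM libraries above both WT PBS libraries, and 9 rose, with a median of 1.47. They are Chil1, Hc, Scd1, Cxcl15, Sftpd, Slc34a2, Sftpa1, Fasn and Il33. Their share of all reads was 4.75% and 6.08% in the WT HDM libraries, against 1.93% and 2.54% in WT PBS, with exact 95% intervals no wider than 0.0832 percentage points to either side. The surfactant collectin Sftpa1 had 2661 and 4062 normalized counts in WT HDM and 1237 and 1649.6 in WT PBS (1.20 ± 0.22, limma adjusted p = 0.0224). The collectin Sftpd had 718 and 935 in WT HDM and 266 and 300.1 in WT PBS (1.53 ± 0.24, limma adjusted p = 0.00515). Both collectins bind microbes and allergens, and in both the second WT HDM library was the higher. Slc34a2 had 1924 and 2546 in WT HDM and 502 and 836 in WT PBS (1.77 ± 0.28, limma adjusted p = 0.00515). The surfactant protein gene Sftpc, at 1.07 ± 0.28, missed the threshold (limma adjusted p = 0.143). Lamp3, a lamellar body protein, came just short at 1.80 ± 0.39 (limma adjusted p = 0.0541). How far the larger share of alveolar transcripts contributed to single genes was not tested.

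Genes of lipid synthesis, complement and chemokines were among the rises, of which Scd1, Fasn, Hc and Cxcl15 are counted in the alveolar type 2 list as well and C3 is not. Scd1, the desaturase that makes oleic acid (chromosome 19, 44394450 to 44407709), had 2243 and 2569 normalized counts in WT HDM and 599 and 670.2 in WT PBS (1.92 ± 0.25, limma adjusted p = 0.00163). Fasn, fatty acid synthase, had 526 and 442 in WT HDM and 183 and 193 in WT PBS (1.36 ± 0.26, limma adjusted p = 0.0347). These were the 2 rises among 18 tested fatty acid genes, of which 15 were positive and 14 had non-overlapping higher values, with a median of 0.68. Over all genes 48.5% were positive, 21.2% had non-overlapping higher values and 0.506% rose. Cholesterol synthesis had 0 calls in either direction among 17 tested genes by limma, edgeR and DESeq2, with 0 higher and 1 lower at an unadjusted p under 0.05 and a median of 0.20. Its regulator Srebf2 had 134 and 155 in WT HDM and 109 and 165 in WT PBS. Hc, complement C5 (chromosome 2, 34983329 to 35068506), had 701 and 565 normalized counts in WT HDM and 88.8 and 149 in WT PBS (2.44 ± 0.30, limma adjusted p = 0.00163). C3, the central complement component, had 979.5 and 795 in WT HDM and 286 and 207 in WT PBS (1.85 ± 0.26, limma adjusted p = 0.00313). They were 2 rises of 9 tested complement genes, against 0.506% of all genes. Serping1, the C1 inhibitor, had 32.0 and 40.0 in WT HDM and 0 reads in WT PBS, at least 14.3-fold higher against the floor of 3 reads per library, and fell just short (limma adjusted p = 0.101). Cxcl15, the mouse lung chemokine lungkine, had 1131 and 1503 in WT HDM and 347 and 527 in WT PBS (1.61 ± 0.24, limma adjusted p = 0.0041). It was 1 rise of 4 tested chemokines of 34 listed, and 12 listed chemokines, among them Ccl2, Ccl17 and Ccl20, had 0 reads in all 4 WT libraries.

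Some host defence genes rose. Of 14 tested antimicrobial and acute-phase genes 3 rose, Sftpd, Sftpa1 and Lyz1, against 0.506% of all genes. Lyz1, a lysozyme, had 235 and 382 normalized counts in WT HDM and 37.5 and 88.2 in WT PBS (2.36 ± 0.47, limma adjusted p = 0.0386). Its paralog Lyz2 had 1112 and 1858 in WT HDM and 357 and 754 in WT PBS and came just short (1.47 ± 0.32, limma adjusted p = 0.0541). The 2 lysozyme transcripts share 16.1% and 15.4% of their 50-base stretches. Bpifa1, a secreted defence protein of the upper airway, lay the other way with 279 and 423 in WT HDM and 649.9 and 1115 in WT PBS (-1.31 ± 0.52, limma adjusted p = 0.459), and did not pass.

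Antigen presentation genes lay higher, with a median of 3.26 for class II and of 1.19 for class I. Cd74, the invariant chain of MHC class II, had 364 and 749 normalized counts in WT HDM and 66.6 and 81.8 in WT PBS (2.81 ± 0.40, limma adjusted p = 0.00337). H2-Aa, a class II alpha chain, had 99.1 and 199 in WT HDM and 9.19 and 29.1 in WT PBS (3.01 ± 0.60, limma adjusted p = 0.0403). H2-Eb1, a class II beta chain, had 65.2 and 99.3 in WT HDM and 3.83 and 9.09 in WT PBS (3.55 ± 0.71, limma adjusted p = 0.0403). All 6 tested class II genes had non-overlapping higher values and 3 rose, against 21.2% and 0.506% of all genes. In these 3 rising genes the second WT HDM library was the higher. H2-D1, a classical class I heavy chain, had 571 and 739 in WT HDM and 229.6 and 292 in WT PBS (1.32 ± 0.24, limma adjusted p = 0.0197). It was the 1 rise of 15 tested class I genes, all 15 of which were positive, against 48.5% of all genes. H2-D1 and H2-K1 share 5.31% and 6.94% of their 50-base stretches. Markers of macrophages and dendritic cells, which carry much class II, moved with these genes. Their 26 listed genes made up 0.407% and 0.752% of the WT HDM reads, against 0.130% and 0.229% of the WT PBS reads. In each WT library most of these reads came from Lyz2, which is also listed as a marker of the surfactant-making alveolar cells. This share is therefore not a measure of macrophages and dendritic cells alone. In WT HDM 20 and 22 of the 26 had reads, against 6 in each WT PBS library. The macrophage receptor gene Csf1r had 16.3 and 43.8 normalized counts in WT HDM and 0 reads in WT PBS, and Ptprc, which encodes the leukocyte antigen CD45, had 12.4 and 37.4 in WT HDM and 0 and 3.64 in WT PBS. The alveolar macrophage marker Siglecf had 0 reads in all 4 WT libraries. Lymphocyte markers made up 0.0111% and 0.0283% of the WT HDM reads, against 0.000417% and 0.00365% of the WT PBS reads. Granulocyte and mast cell markers took 0.00809% and 0.0409% in WT HDM, against 0 reads, which allows up to 0.000625%, and 0.00268% in WT PBS. The part of these cells in the class II rise, and in that of Chil3, was not tested.

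Collagens and other matrix genes lay far higher after HDM. Col3a1, a fibrillar collagen chain of fibroblasts (chromosome 1, 45311538 to 45349706), had 461 and 500.2 normalized counts in WT HDM and 29.1 and 20.9 in WT PBS (4.23 ± 0.43, limma adjusted p = 0.000238). Col1a1 had 323 and 232 in WT HDM and 15.3 and 31.8 in WT PBS (3.57 ± 0.52, limma adjusted p = 0.00379). Col1a2, the second chain of type I collagen, had 282 and 378 in WT HDM and 8.42 and 20.9 in WT PBS (4.51 ± 0.90, limma adjusted p = 0.0403). By the ratio of group means these 3 collagens were 19.2-fold, 11.8-fold and 22.5-fold higher. They were the 3 rises of 10 tested fibroblast and smooth muscle markers, whose median was 3.52. Over all genes tested 0.506% rose, with a median of -0.03. Of 22 tested matrix genes 6 rose, with a median of 1.91. Fn1, fibronectin, had 129.8 and 95.4 normalized counts in WT HDM and 7.65 and 10.9 in WT PBS (3.47 ± 0.52, limma adjusted p = 0.0041). Sparc, a matrix glycoprotein, had 208 and 220.5 in WT HDM and 14.5 and 5.46 in WT PBS (4.42 ± 0.83, limma adjusted p = 0.0251). Bgn, the proteoglycan biglycan, had 86.7 and 148 in WT HDM and 4.59 and 5.46 in WT PBS (4.25 ± 0.87, limma adjusted p = 0.0411). The other 3 were the secreted glycoprotein gene Thbs1 at 2.15 ± 0.40, the basement membrane collagen Col4a2 at 2.38 ± 0.48 and the collagen chaperone Serpinh1 at 2.37 ± 0.48. The intermediate filament gene Vim came just short (3.42 ± 0.75, limma adjusted p = 0.0541).

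Endothelial genes lay higher in the same libraries. All 18 tested markers had non-overlapping higher values in WT HDM and 3 rose, against 21.2% and 0.506% of all genes. The median was 2.37. Ace, angiotensin-converting enzyme of lung capillaries, had 160.4 and 162 normalized counts in WT HDM and 31.4 and 31.8 in WT PBS (2.32 ± 0.44, limma adjusted p = 0.027). Vwf, von Willebrand factor, had 227 and 202 in WT HDM and 36.0 and 66.4 in WT PBS (2.11 ± 0.44, limma adjusted p = 0.0445). Calcrl, the adrenomedullin receptor, stood at 2.23 ± 0.46, and the junction cadherin Cdh5 came just short at 2.21 ± 0.48 (limma adjusted p = 0.0541). Aqp1 had 177 and 231 in WT HDM and 44.4 and 44.6 in WT PBS (2.16 ± 0.45, limma adjusted p = 0.0457). Nrp1, a receptor for semaphorins and VEGF, had 190.4 and 226 in WT HDM and 27.6 and 38.2 in WT PBS (2.64 ± 0.53, limma adjusted p = 0.0403). Endothelial markers made up 0.434% and 0.449% of the WT HDM reads, against 0.107% and 0.0985% of the WT PBS reads. Fibroblast and smooth muscle markers made up 0.434% and 0.421% of the WT HDM reads, against 0.0392% and 0.0440% of the WT PBS reads. Erythroid genes, which mark red blood cells, made up 0.0600% and 0.104% of the WT HDM reads, against 0.00666% and 0.00973% of the WT PBS reads. Pan-epithelial genes made up 0.685% and 0.640% of the WT HDM reads, against 0.921% and 0.860% of the WT PBS reads. The 95% intervals of these shares reached at most 0.0284 percentage points to either side. Of the 38 rising genes 16 belong to a marker list, 9 to alveolar type 2 cells, 3 to endothelium, 3 to fibroblasts and 1, Chil3, to macrophages. The part of other cell types in these rises was not tested.

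**Figure D3:**
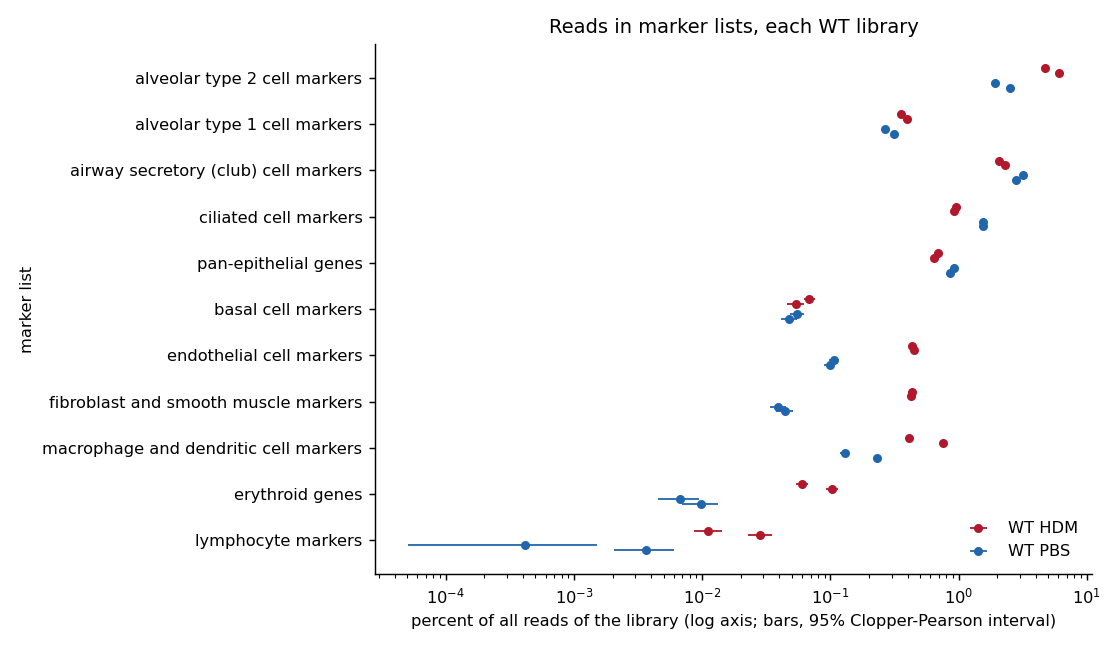
Percent of all reads of a library that fell in each marker list (log axis), 1 point per WT library with its 95% Clopper-Pearson interval, WT HDM above WT PBS. The leukocyte, endothelial, fibroblast and erythroid lists lie higher in both WT HDM libraries, and the ciliated, club and pan-epithelial lists lie lower.

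The remaining rises were Adgrf5 and Gadd45g, which belong to none of the lists. Adgrf5, an adhesion receptor that limits surfactant pools in mouse lung, had 403 and 500.2 normalized counts in WT HDM and 154 and 159 in WT PBS (1.51 ± 0.27, limma adjusted p = 0.0177). Gadd45g, a stress-response gene, had 90.0 and 128 in WT HDM and 21.4 and 15.5 in WT PBS (2.49 ± 0.51, limma adjusted p = 0.0403). Neither pair of groups overlapped, which adds no support, as both genes were chosen by a test on these values.

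Stress and inflammatory programmes gave 0 calls in either direction by limma and by edgeR. Of 26 tested genes of protein folding in the endoplasmic reticulum 0 passed, and the median was 0.54. Of the 26, 21 were positive and 9 had an unadjusted p under 0.05 on the higher side, against 48.5% and 4.5% of all genes. The chaperone Hspa5 had 559 and 678 normalized counts in WT HDM and 348 and 251 in WT PBS and came just short (1.06 ± 0.23, limma adjusted p = 0.0541). Xbp1, a transcription factor of that response, stood at 1.61 ± 0.39 (limma adjusted p = 0.099), and DESeq2 called both of them and Calr higher. Of 20 tested interferon-stimulated genes 0 passed, with a median of 0.50. The guanylate-binding protein Gbp2 had 32.0 and 41.3 in WT HDM and 0 reads in WT PBS, at least 14.6-fold higher against the floor of 3 reads per library (limma adjusted p = 0.296). Of 12 tested NF-kB genes 0 passed, with a median of 0.66, and the iron-binding Lcn2 had 58.0 and 106 in WT HDM and 12.2 and 11.8 in WT PBS (limma adjusted p = 0.378). Immediate early factors, which sorting can induce, had a median of -0.23 over 19 tested genes with 0 calls, and Fos had 268 and 313 in WT HDM and 516 and 372 in WT PBS. Cell cycle genes were mostly under the filter, and the 7 tested had a median of 0.10 with 0 calls. In these lists the members with an unadjusted p under 0.05 numbered 7 higher for interferon, 2 higher for NF-kB, 1 lower for immediate early factors and 0 for the cell cycle. DESeq2 called 2 interferon genes, Gbp2 and Igtp, and 1 NF-kB gene, Lcn2, higher. Ribosomal protein genes had a median of 0.15 over 43 tested, with 0 at an unadjusted p under 0.05.

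**Figure D4:**
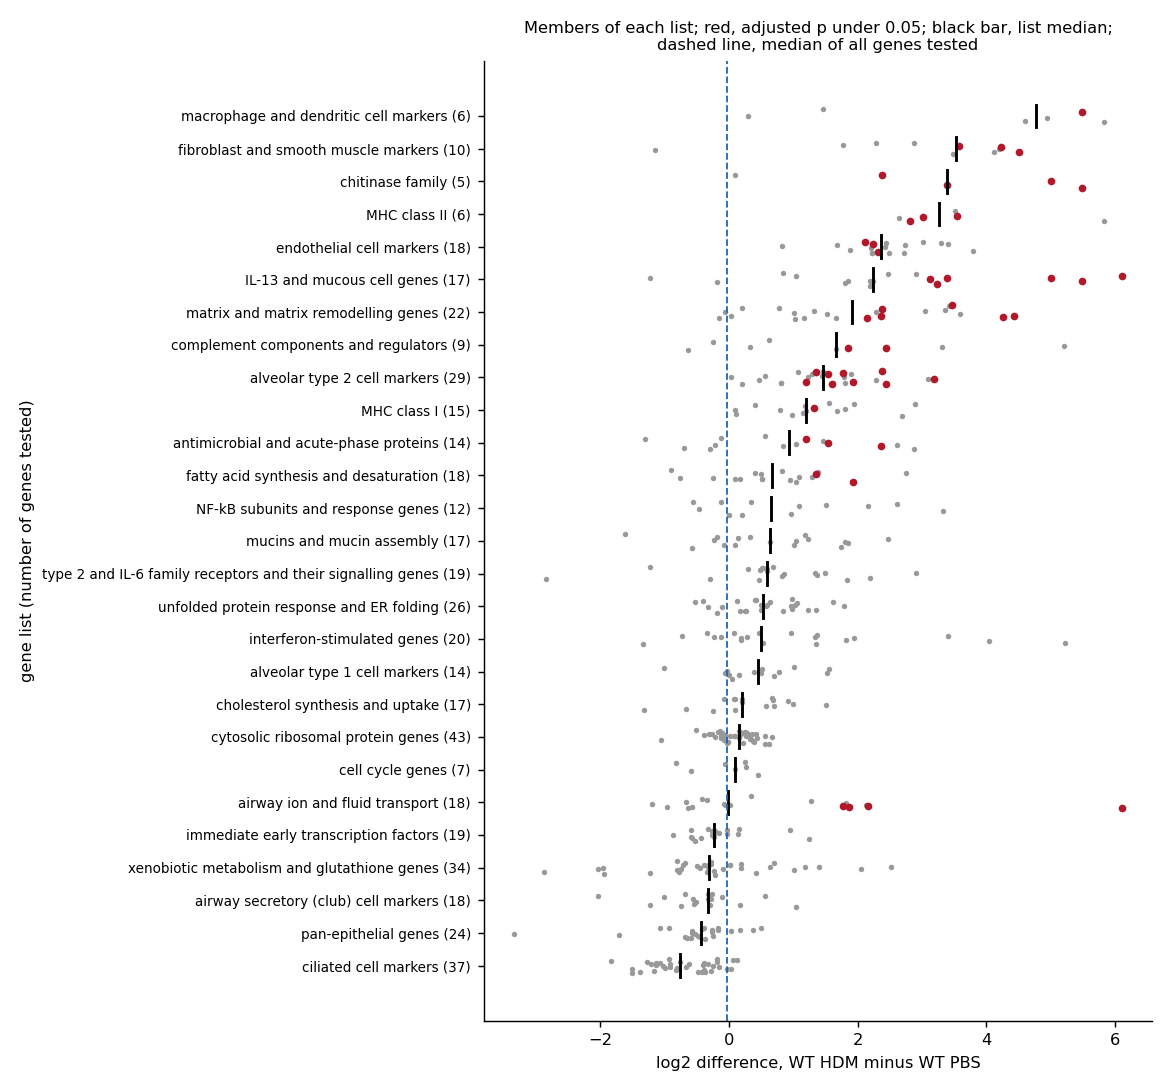
Differences of WT HDM minus WT PBS (log2) of the members of each list, 1 point per gene tested, with the list median as a black bar and the median of all genes as a dashed line. Red points passed at a limma adjusted p under 0.05. The ciliated, club and xenobiotic lists hold none, and neither do some lists with a median above 0, such as the mucin and NF-kB lists. The airway ion and fluid transport list, whose median is next to that of all genes, holds 4.

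Several genes lay lower after HDM without passing. Pglyrp1, a peptidoglycan recognition protein, had 5.22 and 0 normalized counts in WT HDM and 39.8 and 54.6 in WT PBS (-4.26 ± 0.92, limma adjusted p = 0.0541). Erich3 had 8.48 and 2.58 in WT HDM and 39.8 and 55.5 in WT PBS (-3.04 ± 0.66, limma adjusted p = 0.0541). Aldh3a1, an aldehyde dehydrogenase, had 13.7 and 6.45 in WT HDM and 108 and 52.7 in WT PBS (-2.87 ± 0.64, limma adjusted p = 0.0625). All 3 had non-overlapping lower values.

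Airway cell genes lay on the lower side without passing one by one. Of 37 tested ciliated cell markers 34 had a negative difference, 25 had both WT HDM libraries below both WT PBS libraries and 19 had an unadjusted p under 0.05, against 51.5%, 20.8% and 4.43% of all genes. Their median was -0.75 and 0 passed. Dnah5, an outer dynein arm heavy chain, had 199.6 and 236 normalized counts in WT HDM and 375 and 446 in WT PBS (-0.91 ± 0.24, limma adjusted p = 0.128). Cfap54, a protein of the ciliary central apparatus, had 38.5 and 41.3 in WT HDM and 100.3 and 131 in WT PBS (-1.50 ± 0.36, limma adjusted p = 0.0946). Foxj1 stood at -0.49 ± 0.23 (limma adjusted p = 0.555). DESeq2 called Dnah5 and Cfap54 lower, and edgeR called 0 of the list. Quantile normalization called 3 ciliated markers lower, Dnah5, Cfap54 and Cfap44. The fit of the 4 WT libraries alone called 4 lower, Cfap44, Cfap54, Hydin and Dnah5. Of 18 tested club cell markers 15 were negative, with 5 at an unadjusted p under 0.05, a median of -0.32 and 0 calls by limma, edgeR and DESeq2. Scgb1a1 had a difference of -0.11 ± 0.24 with overlapping groups. Quantile normalization called 4 club markers lower, Cyp2f2, Aldh1a1, Scgb1a1 and Cbr2, and the fit of the 4 WT libraries alone called 3 lower, Scgb3a1, Cyp2f2 and Sult1d1. The club cell cytochrome Cyp2f2 had 1659.7 and 1894 in WT HDM and 2955 and 2735 in WT PBS (-0.68 ± 0.21, limma adjusted p = 0.262). Ciliated markers made up 0.949% and 0.927% of the WT HDM reads, against 1.55% and 1.54% of the WT PBS reads, and club markers made up 2.07% and 2.31% of the WT HDM reads, against 3.16% and 2.82% of the WT PBS reads. Both shares were lower in WT HDM, where those of alveolar type 2, endothelial, fibroblast and leukocyte markers were higher, and their part in these values was not tested.

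Xenobiotic metabolism and glutathione genes had a median of -0.30 over 34 tested members. Of these, 22 were negative and 17 non-overlapping lower, against 51.5% and 20.8% of all genes. Sult1d1, a sulfotransferase and club cell marker, stood at -2.03 ± 0.55 without overlap of the groups (limma adjusted p = 0.157). Gclc, the catalytic subunit of glutathione synthesis, went against the list with 290.2 and 383 normalized counts in WT HDM and 142 and 151 in WT PBS (1.18 ± 0.28, limma adjusted p = 0.095). By limma and edgeR 0 of the 34 passed. At an unadjusted p under 0.05, 3 were higher and 10 lower, against 4.5% and 4.43% of all genes. DESeq2 called Aldh3a1 lower and Gclc higher.

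The libraries labelled cKO gave their own differences for the same 39 genes, which were selected by the WT comparison and so tend to be larger there. Of the 38 genes that rose in WT, 29 had a positive difference in cKO. Over all genes tested the median difference in cKO was itself above 0, at 0.10, and the share of positive genes was not computed. Chia1 stood at 3.39 ± 0.44 in WT and 3.14 ± 0.44 in cKO, Clca1 at 3.23 ± 0.46 and 2.27 ± 0.46, and Retnla at 3.13 ± 0.41 and 2.31 ± 0.41. Fn1 stood at 3.47 ± 0.52 in WT and 3.57 ± 0.52 in cKO. All 4 were positive in both genotypes. Fn1 did not stand for its list, as the median of the matrix genes was 1.91 in WT and 0.49 in cKO. The median of the fibroblast and smooth muscle markers was 3.52 in WT and 1.06 in cKO, and that of class II 3.26 and -0.23. For the IL-13 and mucous cell list it was 2.23 in WT and 1.99 in cKO. These medians were not tested. Chil4 stood at 5.01 ± 0.86 in WT and 7.04 ± 0.86 in cKO. The test of the difference itself, the genotype by treatment interaction, gave 0 genes higher and 2 lower in cKO, 0.0266% of those tested, with 584 at an unadjusted p under 0.05. The 2 were Scd1, at 1.92 ± 0.25 in WT and -0.79 ± 0.25 in cKO, and Hc, at 2.44 ± 0.30 in WT and -0.33 ± 0.30 in cKO. edgeR called 0 higher and 7 lower and DESeq2 called 1 and 26. Scd1 passed the interaction in 3 of the 8 fits without 1 library and Hc in 2, and neither passed without any 1 of the WT HDM or WT PBS libraries or without the first cKO HDM library. For the other 37 genes the interaction did not pass, which does not show that the genotypes responded alike. The 9 alveolar type 2 genes that rose in WT ran from 1.20 to 3.19 there and from -0.79 to 1.00 in cKO. Cxcl15 stood at 1.61 ± 0.24 in WT and -0.29 ± 0.24 in cKO (interaction, limma adjusted p = 0.122). Marker shares moved with these genotype values, and the alveolar type 2 share includes the reads of Scd1, Hc and Cxcl15. In the libraries labelled cKO the alveolar type 2 list took 1.86% and 2.0% of reads after HDM and 2.03% and 2.33% after PBS, and the endothelial list 0.0896% and 0.105% after HDM and 0.109% and 0.0888% after PBS. The fibroblast list took 0.0466% and 0.0447% after HDM and 0.0168% and 0.0466% after PBS. The cKO groups were thus not separated upwards after HDM in any of the 3 lists, as they were in WT, and the part of these shares in the genotype values was not tested.

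**Figure D5:**
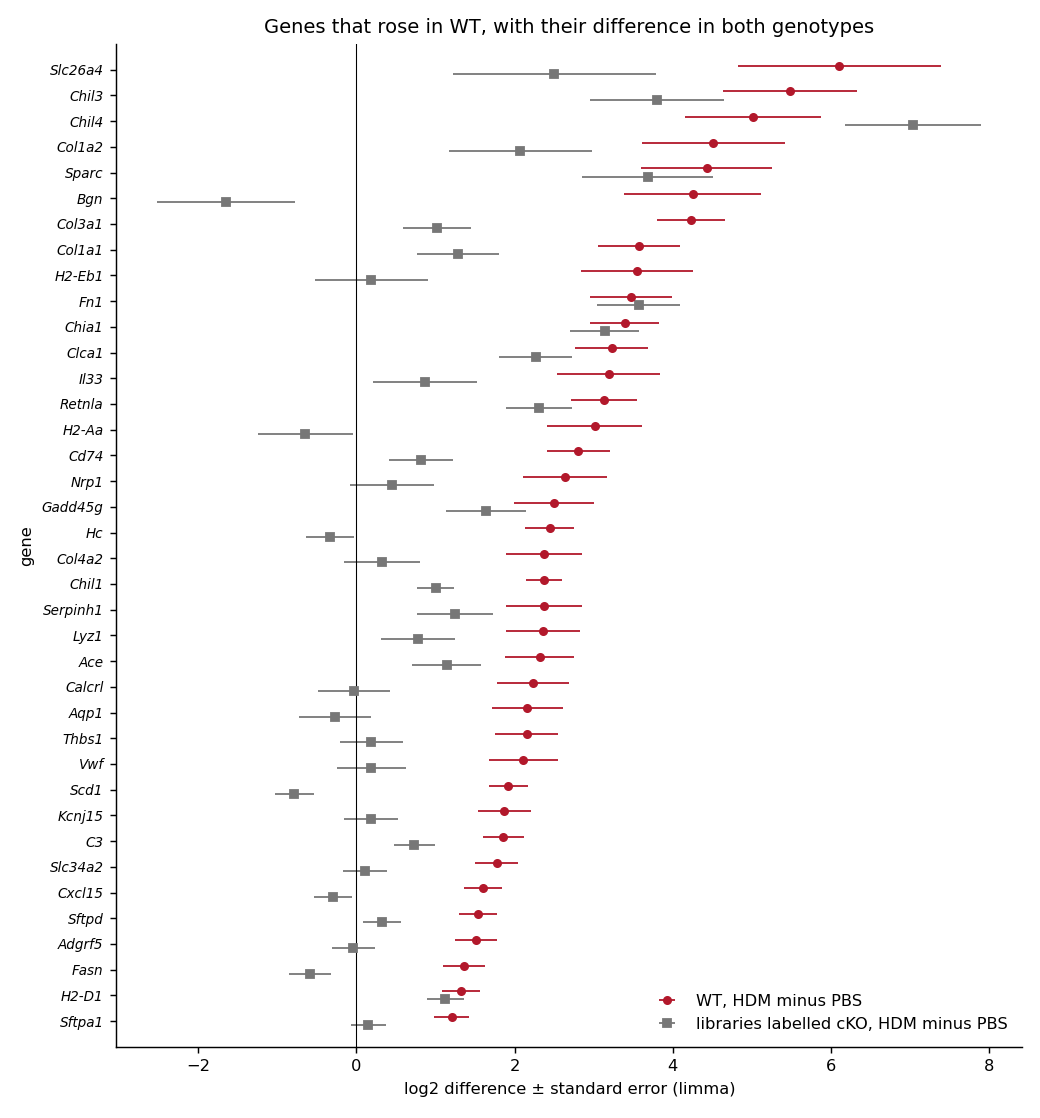
Difference of HDM minus PBS (log2, limma standard error as bars) for the 38 genes that rose in WT, with the WT value above the value of the libraries labelled cKO. Chia1, Clca1, Retnla and Fn1 lie well above 0 in both, while Scd1 and Hc lie above 0 in WT and below it in cKO.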

How the data were processed

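Airway epithelial cells sorted from lung were profiled by RNA-seq, 2 libraries in each of 4 groups, of which the WT HDM and WT PBS libraries are the subject. The deposited table gives a signal per gene and library, namely reads that the authors had counted and normalized. The submitters' processing notes name HOMER, DESeq2 and mm10. No aligner, annotation release or use of strand is given in the sources used here. Overlapping and antisense genes may therefore share reads.

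Within a library 100% of the deposited values were whole multiples of the value of 1 read (tolerance 0.01 reads), which recovered 232556 to 593200 reads per library. Genes with a mean of at least 10 were analysed as log2(value + 1), which understates the change of low genes, with limma 3.58.1 in R 4.3.3 (1 mean per group, all 8 libraries, eBayes with a trend, two-sided, Benjamini-Hochberg over 7512 genes, adjusted p under 0.05). Errors after ± are limma standard errors of the log2 difference. DESeq2 1.42.0 and the quasi-likelihood test of edgeR 4.0.16 were run on the whole reads. The limma step was tested on simulated data. Gene positions and upstream windows come from RefSeq on GRCm38.p6, where 39 of 39 called genes matched a position, and shared 50-base stretches from GENCODE M21 transcripts. Read shares carry exact Clopper-Pearson 95% intervals.

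The members, the 37 gene lists and the tests were chosen with earlier results of these data known. Named genes are those that passed, the 4 negative genes of smallest p, up to 4 members of smallest p and the member of highest mean from each list, and Stat3, Il33, Tslp, Muc5ac, Muc5b, Clca1, Scgb1a1, Sftpc, Foxj1, Epcam and Ptprc. Genes named for having few or 0 reads, cell type checks and those that another test called were added after their values were seen, and a few genes that the rule names are not reported here. Of the lists, 34 held a tested member, and mitochondrially encoded genes were not analysed here. The alternatives were pseudocounts of 0.2 and 5, no filter or a minimum mean of 50, size factors by median of ratios, TMM factors, quantile normalization, no trend, robust settings, library weights, a replicate block, the 4 WT libraries alone and each library left out in turn.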

Additional observations from a re-analysis of the deposited data

Results flagged for a closer look

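The responses of 2 genes to HDM differed between the genotypes by the test of the difference itself. Scd1, the fatty acid desaturase, had 2243 and 2569 normalized counts in WT HDM and 599 and 670.2 in WT PBS, and in the libraries labelled cKO it had 194 and 243 after HDM and 293 and 481 after PBS. Its response in cKO minus that in WT was -2.71 ± 0.35 on the log2 scale (limma interaction, adjusted p = 0.00828). All 4 WT values were separated by treatment in one direction and all 4 cKO values in the other. Without 1 library at a time the difference ran from -3.07 to -2.35 and the adjusted p from 0.00029 to 0.324, and over the 13 other settings it passed in 10.

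Hc, complement C5, had 701 and 565 normalized counts in WT HDM and 88.8 and 149 in WT PBS, against 106 and 88.9 in cKO HDM and 133 and 112 in cKO PBS. Its response in cKO minus that in WT was -2.77 ± 0.43 (limma interaction, adjusted p = 0.0386). Without 1 library at a time it ran from -3.14 to -2.40 with an adjusted p from 0.00998 to 0.650, and it passed in 9 of the 13 other settings. Both genes are in the alveolar type 2 marker list, whose share of reads was 4.75% and 6.08% in WT HDM and 1.93% and 2.54% in WT PBS. In the libraries labelled cKO that share was 1.86% and 2.0% after HDM and 2.03% and 2.33% after PBS. The list's share was thus higher after HDM in WT and not in cKO, in the same direction as both genes. The reads of both genes count in this share, and its part in the difference was not tested.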

How the results depend on the processing

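At these depths genes of few reads had wide counting error, and most listed cytokines and chemokines could not be tested. In WT, limma called 38 genes higher and 1 lower. The pseudocount of 0.2 gave 15 higher and that of 5 gave 93 higher and 15 lower, no filter gave 13 higher, a minimum mean of 50 gave 20 lower, and quantile normalization gave 73 and 28. The fit without a trend gave 1 and 0, robust settings 3 lower, library weights 89 and 29, and the 4 WT libraries alone 152 and 38. edgeR gave 3 lower and DESeq2 114 higher and 20 lower. Without 1 library at a time the counts ran from 3 to 93 higher and from 0 to 45 lower. For the interaction, 0 higher and 2 lower in the main fit, the counts lower were 0 with the pseudocount of 0.2, 12 with that of 5, 0 without a filter, 9 at a minimum mean of 50, 1 with TMM, 9 with quantile normalization, 0 without a trend, 7 by edgeR and 26 by DESeq2, which called 1 higher. Without 1 library they ran from 0 to 91 higher and 0 to 24 lower. The cause of these shifts was not tested.

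The replicate numbers did not pair the libraries, as deviations of same-numbered WT libraries correlated at 0.0134 and all other pairs of groups between -0.0164 and 0.0182. With a replicate block 40 genes were higher and 3 lower, and 38 of the 39 calls remained.

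Over all settings the log2 differences of the named genes were weaker than the threshold in 261 cases where the main fit passed and past it in 215 where it did not, and 1408 stood on the same side with the same sign. No list median of 5 or more genes that lay over 1 SD from 0 changed sign. Of genes near 0, Chid1 stood at -0.027 with quantile normalization, and without 1 library at a time Chid1 ran from -0.58 to 0.77, Epcam from -0.43 to 0.10, Muc5b from -0.69 to 0.34, Scgb1a1 from -0.44 to 0.22 and Srebf2 from -0.19 to 0.40.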

Other observations

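The 29 genes just past the threshold, with a limma adjusted p from 0.05 to 0.1, held 22 higher and 7 lower in WT HDM. Those lower included Cfap54 and Dnah6 of motile cilia, while those higher included the endothelial receptor Acvrl1 at 2.44 ± 0.52, the kinase gene Lrrk2 at 2.28 ± 0.49 and Ager, a marker of alveolar type 1 cells, at 1.52 ± 0.36. The alveolar type 1 markers, Ager included, gave 0 calls among 14 tested by limma, with 2 at an unadjusted p under 0.05 and a median of 0.45, and DESeq2 called 1, Ager.

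Tg, which encodes thyroglobulin, the precursor of thyroid hormones, had 1.96 and 5.16 normalized counts in WT HDM and 506 and 42.7 in WT PBS, the largest negative difference of all genes at -5.13 ± 1.50, and it did not pass (limma adjusted p = 0.209). In the libraries labelled cKO Tg had 19.6 and 42.4 after HDM and 0 and 87.6 after PBS. The edgeR test called Tg lower in WT HDM. It was chosen after its values were seen.

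Without the first WT HDM library 45 genes were lower in the second one than in WT PBS, against 1 in the full comparison. Of the 45, 2 belong to the ciliated list, Cfap44 and Dnah12.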
